A study of Mus musculus with 12 samples.

Results

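The Input libraries hold the RNA of lysate from dorsal root ganglion (DRG) tissue or culture, before ribosomes were pulled down. The comparison described here sets the 3 Input columns labelled shGpr151 against the 3 labelled control. They are 6 of the 12 samples of the series, and all 9073 genes of the count table were taken, of which 8312 had enough counts to be kept. All samples came from adult mice of the genotype RPL22HA+/+;Advillin-Cre+, in which a Cre recombinase driven by the sensory neuron promoter of advillin switches on an HA-tagged copy of ribosomal protein L22. Control animals or cultures received AAV-control and the others AAV-shGpr151, an adeno-associated virus carrying a hairpin named for Gpr151. The other 6 samples are the anti-HA immunoprecipitates (IP) of the same treatments. The labels call the cells adult DRG neurons and give no time. The series text speaks of neurons cultured after a conditioning sciatic nerve injury, whereas the extraction protocol speaks of freshly collected ganglia, so which of these the Input RNA came from is not known.

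Gpr151 encodes an orphan G protein-coupled receptor, and sensory neurons raise its transcript after peripheral nerve injury. A conditioning injury of the sciatic nerve switches sensory neurons of the ganglion to a growth state, with activating transcription factors, growth cone proteins and signals to macrophages among the induced genes. Input RNA is not selected for neurons: satellite glia, Schwann cells, fibroblasts, macrophages and vessel cells of the ganglion or culture add to it. In such bulk RNA, fewer cells of a type and less RNA per cell cannot be told apart.

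The columns within each Input group differed by counting noise alone for most genes. Chi-square per degree of freedom over all genes was 0.980 to 1.05 among the 6 within-group pairs of columns and 7.34 to 7.42 among the 9 pairs across groups. The 3 columns of a group were therefore summed and taken as 1 sample, with 6332991 counts for Input control and 6148538 for Input shGpr151, and the median gene had 32 and 30 counts. No comparison below has a replicate check, so no p-value of a gene is given. Where columns are said below to lie apart between the groups, this restates counting error and is not replication. A log2 ratio is the shGpr151-labelled library over control, from summed counts on library sizes scaled by the trimmed mean of M values (TMM), and the values in brackets are its exact 95% binomial interval (Clopper-Pearson). PCR copies of one molecule cannot be recognised without molecular identifiers, so the intervals cover counting error only. A gene is said to be past 1.5-fold where its whole interval lies beyond a 1.5-fold difference. Levels in CPM (counts scaled to 1000000 per library) are shares of a library and are not divided by transcript length.

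Gpr151 (ENSMUSG00000042816) had 10, 8 and 6 counts in the control columns and 4, 4 and 5 in the columns labelled shGpr151. The columns did not overlap, but on sums of 24 and 13 counts the log2 ratio of -0.86 (-1.96 to 0.17) was not past any fold. In the IP libraries, where the gene had 314 and 250 counts, its ratio was -0.0018 (-0.25 to 0.24). A lower target was thus not detectable in Input at this depth and was not seen in IP, and every direction below is between libraries as labelled. Csf1, the macrophage growth factor that injured sensory neurons make, had 22, 14 and 26 counts in control and 10, 28 and 26 in the shGpr151-labelled library, with a log2 ratio of 0.067 (-0.46 to 0.59).

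Markers of sensory neurons and of the other cells of the ganglion were found in both libraries. Of 30 pan-neuronal and sensory neuron markers 28 were in the table, and their summed level was 3288 CPM in control and 3530 CPM in the shGpr151-labelled library. This sum follows its abundant members, since 18 of the 28 had a log2 ratio below 0, with a median of -0.15. Satellite glia markers (19 of 21 in the table) summed to 6118 and 5645 CPM, Schwann cell markers (14 of 19) to 499 and 485 CPM, macrophage markers (19 of 28) to 837 and 951 CPM, and fibroblast markers (19 of 24) to 852 and 739.9 CPM. Endothelial markers (11 of 20) summed to 66.6 and 80.8 CPM, and pericyte and smooth muscle markers (10 of 16) to 291 and 364 CPM. Hemoglobin and other erythroid genes were not among the genes of the table, which lists only genes with at least 1 count in every column, and of 18 lymphocyte and neutrophil markers 1, S100a8, was present. The library totals of the 2 groups differ little, so depth does not separate them, while the cell makeup of the samples was not measured apart from these transcripts.

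Of the 8312 genes kept, 79 were higher past 1.5-fold in the shGpr151-labelled library (0.95% of the genes) and 27 were lower (0.325%), 106 in all (1.28%). The median gene had a log2 ratio of -0.066, the middle 80% of genes ran from -0.68 to 0.55, and 45.4% lay above 0. The excess of higher genes lay among abundant transcripts: among the 2515 genes with at least 100 counts in a library, 66 were higher and 13 lower, whereas among the rest 13 were higher and 14 lower. Past 2-fold, 10 genes were higher (0.12%) and 5 lower (0.0602%). All 106 genes past 1.5-fold had columns that did not overlap between the groups. As the columns of a group agreed to counting noise, this follows largely from the 1.5-fold rule and is no replicate check. Between the IP libraries of the same treatments, 4 genes were higher past 1.5-fold (0.0481%) and 2 were lower (0.0241%). In edgeR, the quasi-likelihood test over all 12 columns called 691 genes higher (8.31%) and 720 lower (8.66%) at an adjusted p of 0.05, a test that compares these libraries and not the conditions.

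**Figure D1:**
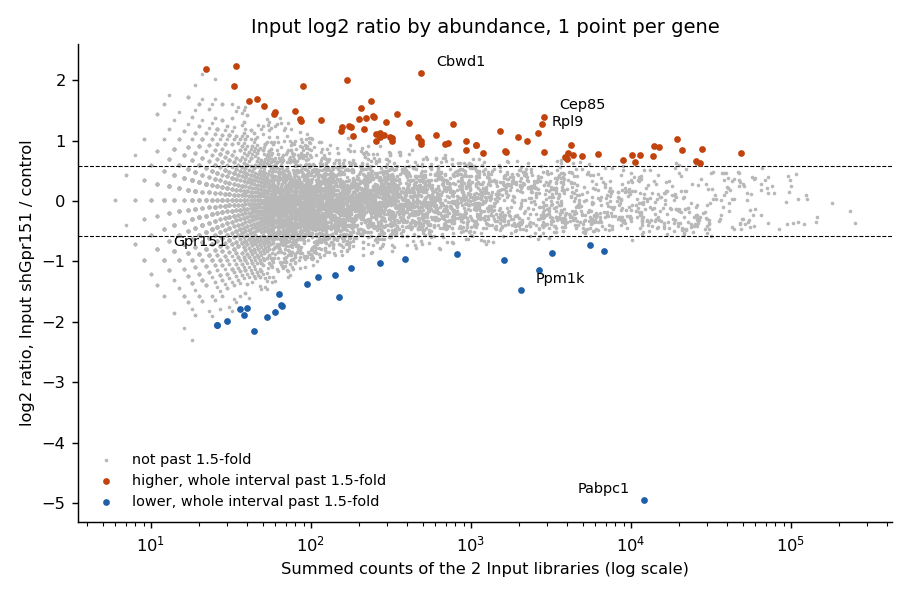
Each point is 1 of the 8312 genes kept, with the summed counts of the 2 Input libraries on a log axis and the Input log2 ratio, shGpr151 over control, on the vertical axis; dashed lines mark 1.5-fold. The 79 higher genes (orange) extend to abundant transcripts such as Rps6, with 9923 and 17752 counts, 14 of the 27 lower genes (blue) have under 100 counts in both libraries, and Pabpc1 stands alone at -4.96.

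Pabpc1 (ENSMUSG00000022283), the main cytoplasmic poly(A)-binding protein, which coats the mRNA tail and promotes translation, had by far the largest difference. It had 3907, 3903 and 3892 counts in the control columns and 132, 114 and 125 in the columns labelled shGpr151. Its 1848 CPM in Input control was the value that stood apart, since Input shGpr151 had 60.3 CPM and the IP libraries 118 and 117 CPM. The log2 ratio was -4.96 (-5.11 to -4.81), a 31.1-fold lower level, whereas the IP libraries had 502 and 384 counts and a ratio of -0.06 (-0.25 to 0.14). Among the 30 poly(A)-binding, tail and decay factors kept, Xrn1, the 5′ to 3′ exonuclease of mRNA decay, was the other member past 1.5-fold. It had 1171, 1102 and 1210 counts in control and 715, 679 and 671 in the shGpr151-labelled library, a ratio of -0.73 (-0.81 to -0.65). In IP Xrn1 had only 120 and 79 counts and a ratio of -0.28 (-0.70 to 0.15). Its level in control was 28.3 CPM in IP against 550 CPM in Input. Pan3, part of a deadenylase that shortens the tail, had 9380 and 6815 counts and a ratio of -0.44, and the median of the list was -0.01. Reads of Pabpc1 can match processed copies of the gene, and the labels do not give how such reads were divided.

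After Pabpc1, the lower genes with at least 100 counts in a library were a mixed group of enzymes and regulators. Ppm1k, the mitochondrial phosphatase that activates branched-chain amino acid breakdown, had 508, 507 and 498 counts in control and 193, 175 and 171 in the shGpr151-labelled library. Its ratio was -1.47 (-1.61 to -1.33), a 2.77-fold lower level, and the IP libraries held 10 and 8 counts, a level over 16-fold below Input in CPM. Racgap1, a protein of cytokinesis, had 345, 366 and 357 counts against 172, 198 and 167, a ratio of -0.97 (-1.12 to -0.82). Arhgef40 had 1414, 1518 and 1439 against 841, 784 and 791, a ratio of -0.83 (-0.91 to -0.76). For these 3 genes the spread of columns within a library was small beside the difference between the 2 libraries. Lrrc17, a secreted leucine-rich repeat protein, had 711, 744 and 620 counts against 368, 437 and 324, a ratio of -0.86 (-0.96 to -0.75). The columns of Lrrc17 spread more than counting noise in both groups, yet the lowest control column was above the highest column labelled shGpr151.

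Among less abundant lower genes, Ano8, a member of the anoctamin membrane protein family, had 32, 44 and 37 counts against 10, 15 and 12, a ratio of -1.59 (-2.17 to -1.04). Pex19, the import receptor for peroxisomal membrane proteins, had sums of 100 and 42 counts and a ratio of -1.23. Rangap1, the GTPase activator of the nuclear transport protein Ran, had 123 and 56 counts and -1.11. Ppp3cb, a catalytic subunit of calcineurin, had 182 and 88 counts and -1.03. Mthfd2l, a mitochondrial folate enzyme, had 255 and 130 counts and -0.95. These 4 genes fell short of the 1.5-fold rule when 1 column was left out, although none changed direction. Pex19 did so without control column 2 (-1.16) or 3 (-1.12) or shGpr151 column 2 (-1.04), and Rangap1 without shGpr151 column 2 (-0.95) or 3 (-1.05). Ppp3cb did so without control column 3 (-0.93) or shGpr151 column 3 (-1.02), and Mthfd2l without control column 3 (-0.91) or shGpr151 column 2 (-0.93). Of the 27 lower genes 14 had fewer than 100 counts in both libraries. They included Cdh19, a cadherin of satellite glia and Schwann cell precursors, with 9, 10 and 17 counts against 1, 6 and 1, and Bcat2, a mitochondrial branched-chain aminotransferase, with 47 and 13 counts in sum. Cdh19 fell short of 1.5-fold without control column 3 (-1.81) or shGpr151 column 1 (-1.75) or 3 (-1.75), against -2.15 with all columns.

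Cbwd1 (ENSMUSG00000024878), a GTPase that delivers zinc to a methionine aminopeptidase, had the highest ratio among genes with at least 100 counts. It had 32, 32 and 29 counts in the control columns and 144, 118 and 135 in the columns labelled shGpr151, a log2 ratio of 2.11 (1.79 to 2.46) and a 4.33-fold higher level. Ube2t, the E2 enzyme of the Fanconi anemia repair pathway, had 8, 12 and 14 counts against 44, 46 and 44, a ratio of 2.00 (1.45 to 2.59). Tprkb, a subunit of the complex that makes the t6A base of transfer RNA, had 20, 22 and 16 against 59, 58 and 64, a ratio of 1.66 (1.23 to 2.12). The groups were far apart for all 3, and their IP ratios were -0.38, 0.43 and -0.18 with intervals that included 0. Cep85, a centrosomal protein, was the most abundant of the 12 higher genes the naming rule took, with 311, 203 and 286 counts against 676, 646 and 757 and a ratio of 1.40 (1.28 to 1.52). Its control columns spread more widely than counting noise.

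**Figure D2:**
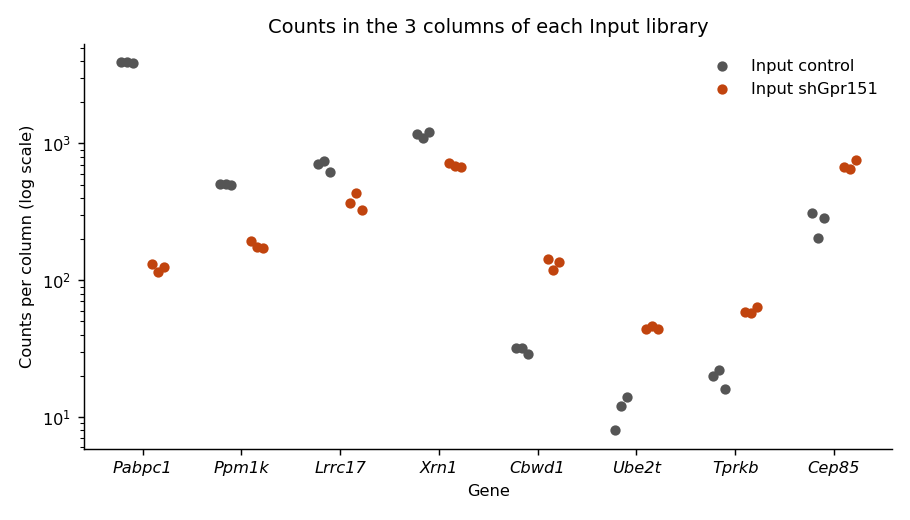
Counts in the 3 columns of Input control (grey) and of Input shGpr151 (orange) for 4 lower and 4 higher genes, on a log axis. The columns do not overlap between the groups, with Pabpc1 at 3892 to 3907 against 114 to 132 counts and Cbwd1 at 29 to 32 against 118 to 144. Columns of Lrrc17 in both groups and of Cep85 in control spread more than counting noise.

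The remaining higher genes of that rule had ratios from 1.29 to 1.54. Rangrf, a cofactor of nuclear import, had 53 and 152 counts and a ratio of 1.54 (1.08 to 2.02), although its control columns ranged from 8 to 29. Hmgb3, a DNA-bending chromatin protein, had 94 and 253 counts and 1.45. Nop16, a nucleolar protein of ribosome assembly, had 85 and 209 counts and 1.32 (0.95 to 1.70). Aimp2, a scaffold of the multi-tRNA synthetase complex, had 69 and 179 counts and 1.40, and Pip5k1a, a kinase that makes the membrane lipid PIP2, had 68 and 178 and 1.41. Mitochondrial members were Dguok, the kinase that salvages purine deoxynucleosides, with 62 and 158 counts and 1.37, Stoml2, an inner membrane scaffold, with 57 and 144 and 1.36, and Mrps24, a subunit of the mitochondrial ribosome, with 121 and 292 and 1.29. Bex1 and Bex3, small adaptor proteins of neurons, were both past 1.5-fold, with 19 and 70 counts (1.90, 1.15 to 2.72) and 477 and 1047 counts (1.16, 1.00 to 1.31).

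The cytosolic ribosome joins a small subunit, which reads the mRNA, to a large subunit, which forms peptide bonds, and its proteins are needed in equal numbers. Their genes share short promoters in which transcription often starts within a run of pyrimidines. The upstream windows of 3 genes are shown, taken as the ribosomal protein genes of highest Input ratio (0.89, 0.86 and 0.64) with a single listed start and an ETS core in the window. They cover the 120 bases before the annotated start (RefSeq, GRCm38.p6), written 5′ to 3′ on the strand of the gene. Capitals mark the letters CCGGAAG, the core bound by ETS-family factors, or GGGCGG, a GC box, on either strand. Rps3a1 lies at chr3:86142669-86142788 (minus strand), Rps6 at chr4:86857368-86857487 (minus strand) and Rplp2 at chr7:141447531-141447650 (plus strand).
Rps3a1: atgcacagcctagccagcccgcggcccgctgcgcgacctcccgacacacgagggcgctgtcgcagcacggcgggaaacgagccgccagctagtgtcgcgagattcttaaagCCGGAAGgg
Rps6: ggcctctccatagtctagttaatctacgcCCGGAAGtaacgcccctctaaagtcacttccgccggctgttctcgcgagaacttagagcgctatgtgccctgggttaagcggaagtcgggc
Rplp2: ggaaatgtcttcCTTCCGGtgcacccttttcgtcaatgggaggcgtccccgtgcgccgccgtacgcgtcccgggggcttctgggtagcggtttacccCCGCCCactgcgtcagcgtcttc

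Of the 8570 promoters of 300 bases that RefSeq lists for 6610 of the genes kept, 18.8% held CCGGAAG on either strand. It was in 37.1% of the 70 promoters listed for 59 cytosolic ribosomal protein genes, in 27.8% of the 79 promoters listed for 67 of the genes higher past 1.5-fold and in 22.7% of the 22 promoters of 20 lower genes. AAGATGG, the core of the YY1 motif, was in 7.63% of all promoters, 17.1% of those of ribosomal protein genes and 11.4% of those of higher genes. GGGCGG was in 64.4% of all promoters and 61.4% of those of ribosomal protein genes. A start at C followed by 4 pyrimidines was listed for 2.33% of all promoters, 20% of ribosomal protein promoters and 5.06% of the promoters of higher genes. The sets overlap, as 14 of the 79 genes higher past 1.5-fold are cytosolic ribosomal protein genes. These matches describe the letters in these windows and no binding was measured.

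The cytosolic ribosomal proteins as a group were higher in the shGpr151-labelled library, and the ribosome-bound RNA of the same treatments did not show it. Of 47 genes of the large subunit 45 had a ratio above 0, 8 were higher past 1.5-fold, 30 past a looser bound of 0.32 on the log2 scale and none lower past either bound, with a median of 0.41. Beside this, 0.95% of all genes were higher past 1.5-fold and 3.38% past the looser bound (2.57% were lower). These shares, with 0.325% lower past 1.5-fold, a median of -0.066 and 45.4% above 0, are the background for the lists below too. Of 34 small-subunit genes 30 were above 0, 6 were higher past 1.5-fold and 15 past the looser bound, and 1 was lower past it, with a median of 0.30. The summed level of the large-subunit genes was 152022 CPM in control and 182691 CPM in the shGpr151-labelled library, and that of the small-subunit genes 107401 and 127788 CPM. In IP all 47 large-subunit genes and 32 of the 34 small-subunit genes were below 0, with medians of -0.15 and -0.16, and none was past 1.5-fold. Among all genes kept 49.7% were below 0 in IP, with a median of 0.0035.

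Single ribosomal proteins covered a wide range that their counting intervals separate. Rpl9 of the large subunit had 318, 264 and 246 counts in control and 583, 607 and 589 in the shGpr151-labelled library, a ratio of 1.12. Rps4x had 1624, 1624 and 1657 against 3055, 2961 and 3050, a ratio of 0.91 (0.86 to 0.96). Rps3a1 had 1762, 1770 and 1751 against 3169, 3259 and 3236 and 0.89. Rps6, the protein phosphorylated by S6 kinases, had 3280, 3339 and 3304 against 5937, 5834 and 5981 and 0.86. The columns of these 4 genes were far apart between groups. Rpl22, the protein whose tagged form the RiboTag allele carries, had 4272 and 7182 counts in sum and 0.77 (0.72 to 0.83), and its IP ratio was -0.15. At the other end, Rps28 had 19347, 19371 and 19567 counts in control and 14879, 14889 and 14687 in the shGpr151-labelled library, a ratio of -0.37 (-0.39 to -0.35). Rps29 had 79810 and 65825 counts in sum and -0.26, and Rpl41, the shortest ribosomal protein, 123893 and 109108 and -0.16. Rps27l, Rps4l and Rpl37 were also below 0, at -0.09, -0.03 and -0.02, of which Rpl37 was above 0 with total-count, relative log expression (RLE) or Input-only TMM library sizes and Rps4l with Input-only TMM sizes. Ribosomal protein genes have many processed copies in the genome, so the counts of single members are uncertain to the extent that reads were divided among copies. Whether the order of the members follows transcript length, or read length or RNA quality of the libraries, was not tested.

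**Figure D3:**
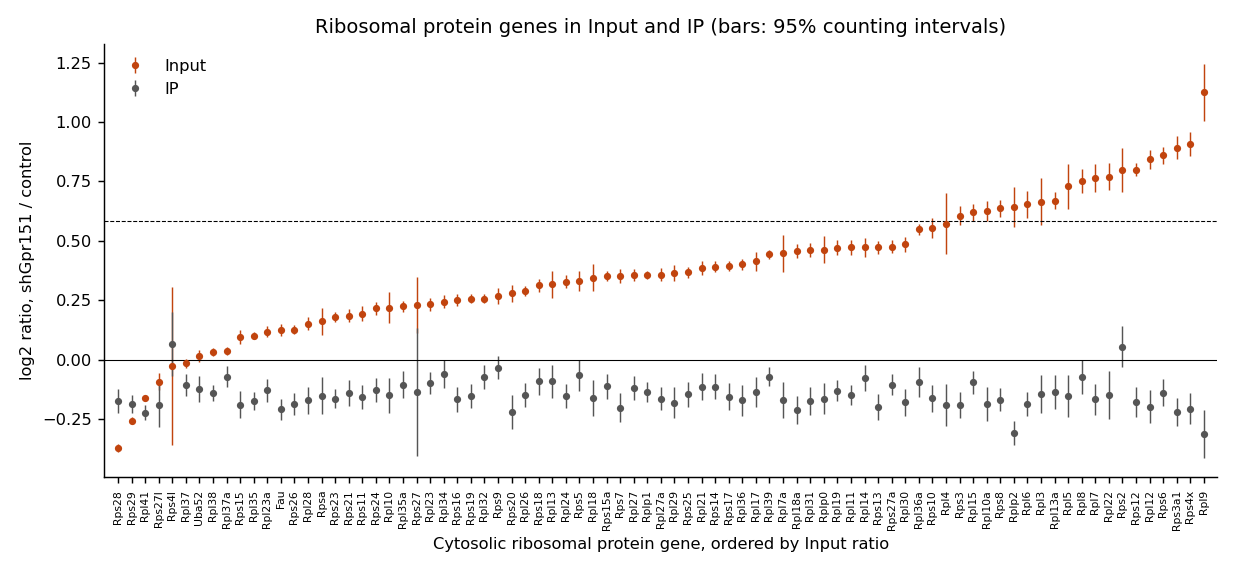
The log2 ratio, shGpr151 over control, of each of the 81 cytosolic ribosomal protein genes kept, ordered by its value in Input (orange), with its value in IP (grey); bars are 95% counting intervals and the dashed line marks 1.5-fold. Input values run from -0.37 for Rps28 to 1.12 for Rpl9, while IP values lie mostly between -0.31 and 0.

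Genes that serve the making of ribosomes and proteins were split. Translation factors had 1 of 51 members higher past 1.5-fold (0.95% of all genes). This was Eef1g, a subunit of the factor that reloads the elongation GTPase. It had 369, 357 and 325 counts against 582, 600 and 632 and a ratio of 0.81 (0.70 to 0.92). Eef1a2, the elongation factor form of neurons and muscle, had 338 and 221 counts and -0.59, and the median of the list was 0.07. Rack1, a scaffold on the small subunit that stands in no list used here, had 1853 and 3057 counts and 0.74. Of 35 ribosome biogenesis genes 2 were higher past 1.5-fold, Nop16 (above) and Nhp2, a protein of the particles that pseudouridylate ribosomal RNA, with 1527 and 2454 counts and 0.71 (0.61 to 0.80). The median of the biogenesis list was 0.14 and Wdr12, its most abundant member, had 17092 and 12714 counts and -0.41. Like Samhd1 below, Wdr12 had an IP level over 16-fold under its Input level in CPM.

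Protein quality control lists had few members past 1.5-fold. Proteasome subunits had none of 37 members past 1.5-fold and 5 higher past 0.32 on the log2 scale, but 29 lay above 0 and their median was 0.33. Psmc3, an ATPase of the regulatory particle, had 255 and 411 counts and 0.71, and Psmb6, a catalytic subunit, 3001 and 3693 counts and 0.32. Psmd5, an assembly chaperone of that particle, was at -0.54 on 325 and 221 counts. Cytosolic chaperones had a median of 0.09 and none of 36 past 1.5-fold. Genes of protein entry into the endoplasmic reticulum had a median of 0.21 and 1 of 47 higher (0.95% of all genes). This was Spcs2, a signal peptidase subunit, with 108 and 213 counts and 1.00 (0.66 to 1.35). E2 ubiquitin enzymes and deubiquitinases had 1 of 72 higher, Ube2t, beside 0.95% of all genes, and a median of -0.11.

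RNA processing genes leaned to higher levels. Of 63 spliceosome and hnRNP genes 3 were higher past 1.5-fold and none lower, with a median of 0.20. Sf3b6, which contacts the branch point, had 196, 228 and 216 counts against 422, 461 and 436 and a ratio of 1.06 (0.93 to 1.20). Snrpc, of the U1 particle, had 312 and 613 counts and 1.00, and Snrpf, a ring protein of the spliceosomal particles, had 1480 and 2770 counts and 0.93. Sf3b1, the large partner of Sf3b6, was at -0.51 on 127 and 88 counts. Chromatin remodelers and histone modifiers had a median of -0.13, against -0.066 for all genes. Of these 63 genes 39 were below 0, while 45.4% of all genes lay above it. None was past 1.5-fold and 5 were lower past 0.32 (2.57% of all genes). Arid1a, a subunit of the BAF remodeler, had 123, 145 and 126 counts against 87, 85 and 95 and a ratio of -0.54, and Kdm5a, a histone demethylase, 282 and 186 counts and -0.58.

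Mitochondrial genes divided by their role. Of 78 mitochondrial ribosomal proteins 58 lay above 0 and 4 were higher past 1.5-fold, namely Mrps24, Mrpl47, Mrps15 and Mrpl21, with a median of 0.21, while Mrps26 was at -0.50 on 3053 and 2122 counts. A list of Timm and Tomm proteins, which import nuclear-encoded proteins and which was chosen after values were seen, had 4 of 22 higher. Tomm20, the receptor that recognizes the import signal, had 79, 87 and 79 counts against 149, 152 and 169 and 0.96 (0.74 to 1.19), Timm8a1 had 237 and 449 counts and 0.94, and Timm10 607 and 1053 and 0.82. Tomm6, a small subunit of the outer membrane pore, had 177, 322 and 324 counts against 606, 690 and 681 and a ratio of 1.29 (1.17 to 1.40). Tomm6 was also the 1 gene of the 79 that was higher past 1.5-fold in IP, at 0.85, and its first control column lay well below the other control columns. Nuclear genes of the respiratory chain did not share this lean, with medians of 0.03 for 36 genes of complex I and 0.05 for 42 genes of complexes II to V and none past 1.5-fold. Ndufs8 of complex I had 1183 and 1631 counts and 0.48, whereas Atp5k of the ATP synthase had 17075 and 13485 counts and -0.32.

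Transcripts of the mitochondrial genome itself were lower or near 0. Of 13 kept 11 were below 0, with a median of -0.26, and none was past 0.32 in either direction. The cytochrome oxidase subunit mt-Co2 had 2531, 2693 and 2673 counts in control and 2090, 2032 and 2039 in the shGpr151-labelled library, a ratio of -0.34. The complex I subunit mt-Nd1 was the clearest exception, with 9134 and 9788 counts and 0.12 (0.08 to 0.16). In IP the median of these transcripts was 0.15.

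In metabolism and redox defence single enzymes stood out, and the lists differed in their lean. Glycolytic enzymes had a median of -0.20 and 2 of 17 higher past 1.5-fold. Tpi1, which interconverts the triose phosphates, had 120, 141 and 115 counts against 251, 210 and 242 and a ratio of 0.92 (0.74 to 1.11), and Ldhb, a lactate dehydrogenase subunit, had 167 and 318 counts and 0.95. Eno1 was at -0.58 on 608 and 402 counts, and Gapdh at -0.0019 on 6321 and 6221. Eno1b, which is not in the list, went the other way past 1.5-fold, at 1.09 on 195 and 409 counts. How reads were divided between Eno1 and Eno1b was not given, so the direction of Eno1 is uncertain. Antioxidant enzymes had 1 of 39 higher past 1.5-fold, Prdx6, a peroxiredoxin, with 336 and 593 counts and 0.84 (0.65 to 1.04), and a median of 0.18. Prdx1 had 9149 and 13081 counts and 0.54 and Sod1 1414 and 2226 counts and 0.68, while Srxn1, the enzyme that repairs peroxiredoxins, was at -0.68 on 470 and 289. Ldhb fell short of 1.5-fold without control column 1 (0.86) or shGpr151 column 1 (0.79), Prdx6 without control column 2 (0.78), Mrps15 without control column 2 (0.92) and Spcs2 without control column 2 (0.86) or shGpr151 column 3 (0.93). Cholesterol and fatty acid synthesis enzymes had a median of -0.16, lysosomal genes -0.12 and V-ATPase subunits -0.15, with no member past 1.5-fold.

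**Figure D4:**
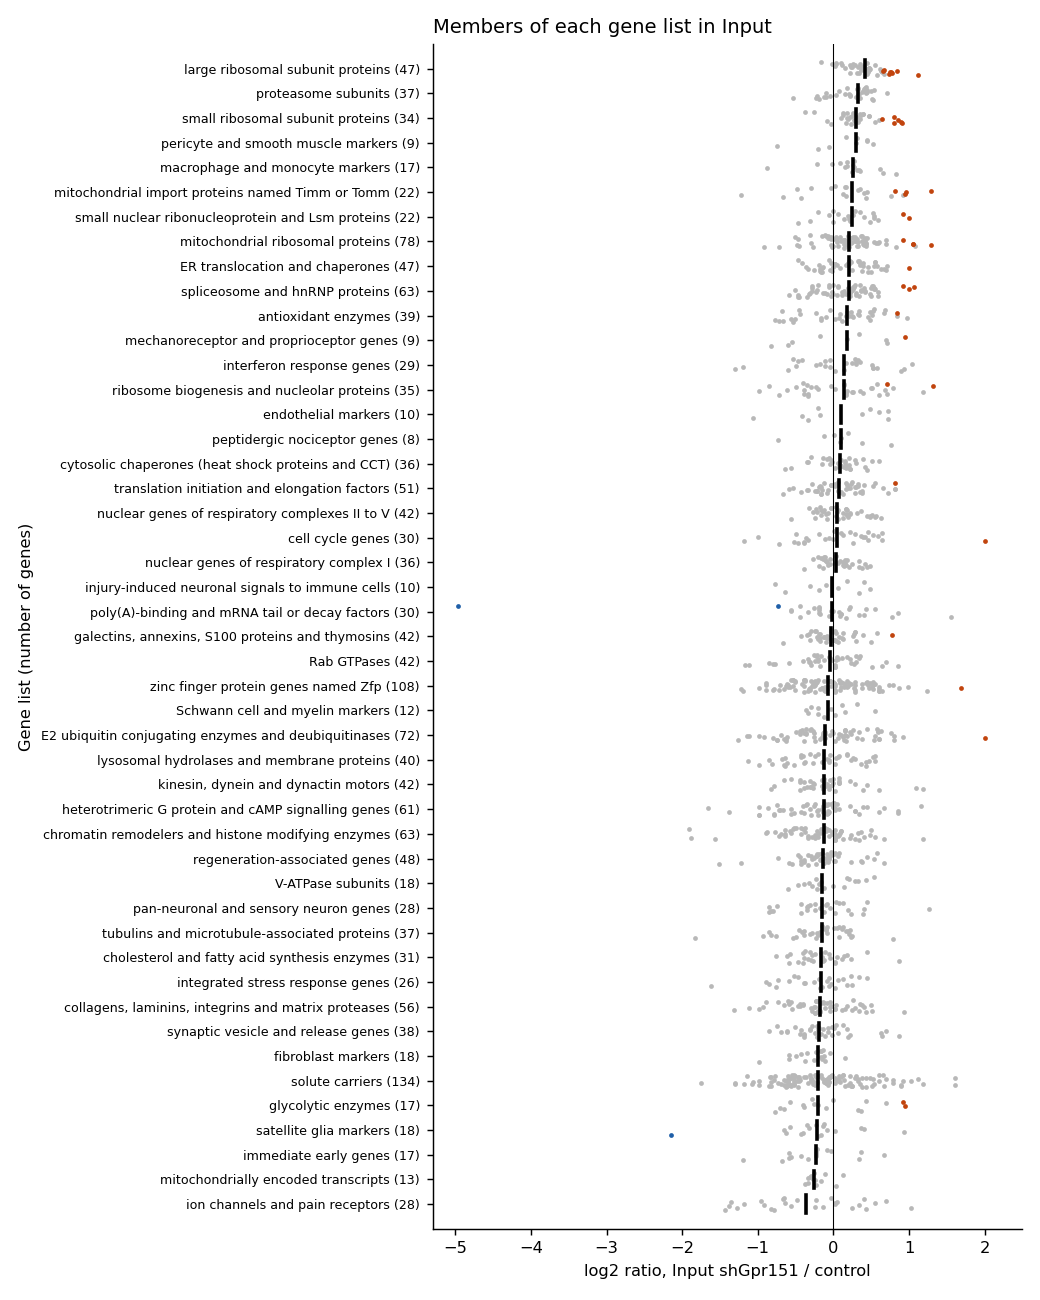
Input log2 ratio, shGpr151 over control, of the members of each list with at least 8 genes kept; points are genes, orange and blue where the whole interval is past 1.5-fold, and black bars are list medians. Medians run from 0.41 for large ribosomal subunit proteins to -0.36 for ion channels and pain receptors, against -0.066 for all genes.

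Neuronal genes showed small differences and no member past 1.5-fold in most lists. Of 28 genes marking neurons or sensory neurons 18 were below 0, with a median of -0.15. Snap25, a fusion protein of synaptic vesicles, had 41, 40 and 35 counts in control and 31, 16 and 21 in the shGpr151-labelled library, a ratio of -0.75 (-1.20 to -0.31). Prph, the intermediate filament of peripheral neurons, had 128, 146 and 130 against 105, 96 and 94 and -0.43. Uchl1, an abundant neuronal deubiquitinase, had 1227, 1225 and 1237 against 1704, 1538 and 1684 and 0.44 (0.38 to 0.50), and Sncg, the most abundant marker, was at 0.03. The columns of Snap25, Prph and Uchl1 did not overlap between groups, yet in different directions. Synaptic vesicle and release genes had 27 of 38 below 0 and a median of -0.20, with Vamp2 at -0.50 on 141 and 98 counts. For ion channels and pain receptors the list median was the lowest, -0.36, with 18 of 28 below 0, but their summed level was only 211 CPM in control and 185 CPM in the shGpr151-labelled library. The most abundant of them, the purinergic channel gene P2rx4, had 605 and 581 counts and -0.04.

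Markers of sensory neuron classes differed little. Calca, which encodes the neuropeptide CGRP, had 259, 242 and 259 counts against 287, 300 and 270 and a ratio of 0.19 (0.05 to 0.34), Gal, the injury-induced peptide galanin, 2205 and 2178 counts and 0.0034, and Nts 283 and 292 and 0.07. Pvalb, of proprioceptors, had 197 and 219 counts and 0.17. Ldhb was the 1 of 9 mechanoreceptor and proprioceptor genes past 1.5-fold.

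Regeneration-associated genes, the program a conditioning injury induces, had 35 of 48 below 0, a median of -0.14 and none past 1.5-fold. Gap43, the growth cone protein, had 211, 200 and 192 counts in control and 164, 153 and 154 in the shGpr151-labelled library, a ratio of -0.34 (-0.51 to -0.16). Itga7, a laminin receptor subunit of growing axons, had 92, 73 and 84 against 44, 51 and 53 and -0.73 (-1.03 to -0.43). Anxa2, a calcium-dependent membrane protein, had 505, 464 and 500 against 695, 723 and 733 and 0.57 (0.47 to 0.67). Atf3, the transcription factor that marks injured neurons, had 106 and 89 counts and -0.23, Jun 187 and 174 and -0.08, and Lgals1, the most abundant, 92321 and 89330 and -0.03. Lgals1 was above 0 with Input-only TMM sizes, at 0.02. Among neuronal signals to immune cells Ccl2, the monocyte chemokine, had 967 and 1262 counts and 0.41 (0.28 to 0.53), and the median of that list of 10 was -0.01. Heterotrimeric G protein and cAMP genes, through which a receptor such as Gpr151 would act, had none of 61 past 1.5-fold and a median of -0.12.

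Markers of the other cell types went different ways. Satellite glia markers had a median of -0.21, with 14 of 18 below 0. Apoe, their lipid carrier, had 312, 335 and 308 counts in control and 203, 204 and 225 in the shGpr151-labelled library, a ratio of -0.57 (-0.72 to -0.43), but Fabp7, another defining marker, had 394, 355 and 411 against 486, 523 and 464 and 0.37 (0.25 to 0.48). Fibroblast markers were below 0 in 17 of 18 cases with a median of -0.20, and Col1a2 had 242 and 159 counts and -0.58 (-0.88 to -0.29). Schwann cell markers had a median of -0.07, with the myelin adhesion gene Mag at -0.29 on 1447 and 1163 counts and Pmp22 at 0.12. Macrophage markers had a median of 0.25 with 14 of 17 above 0, with Lgals3 at 0.27 on 2111 and 2515 counts and Fcer1g at -0.22 on 777 and 657. Pericyte and smooth muscle markers had a median of 0.29, and Tagln, an actin-binding contractile protein, had 372 and 498 counts and 0.44. None of these markers except Cdh19 was past 1.5-fold. The part of cell makeup in the differences of the other gene groups was not tested.

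Stress and growth responses did not lean far. Integrated stress response genes had a median of -0.16 and none of 26 past 1.5-fold. The transcription factor genes Atf4 and Ddit3 were at 0.33 and 0.44 on 298 and 370 and on 331 and 442 counts, whereas the biosynthetic enzyme genes Phgdh, Nars and Sars lay at -0.58, -0.52 and -0.47. Immediate early genes had 14 of 17 below 0 and a median of -0.23, with sums of 181 CPM in control and 165 CPM in the shGpr151-labelled library. Interferon response genes had a median of 0.15, with B2m, the invariant chain of MHC class I, at 0.29 on 4014 and 4836 counts and Samhd1, a deoxynucleotide hydrolase, at -0.53 on 12805 and 8745. Cell cycle genes had 1 of 30 past 1.5-fold, Ube2t, and a median of 0.05, and the kinase cofactors Cks1b and Cks2 were at 0.65 and 0.46.

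Among the remaining families, solute carriers had a median of -0.20 with 87 of 134 below 0 and none past 1.5-fold, although the ATP/ADP carriers Slc25a4 and Slc25a5 of the mitochondrial inner membrane were at 0.66 (764 and 1190 counts) and 0.60 (597 and 891). Collagens, laminins, integrins and matrix proteases had a median of -0.18, tubulins and microtubule-associated proteins -0.15, motor proteins -0.12 and Rab GTPases -0.05, with no member past 1.5-fold. Zinc finger genes named Zfp had a median of -0.07 and 1 of 108 higher, Zfp993, on 11 and 35 counts. Both values were near those of all genes, a median of -0.066 and 0.95% higher. The Zfp993 ratio of 1.69 fell short of 1.5-fold without control column 2 (1.39) or 3 (1.40) or shGpr151 column 1 (1.61) or 3 (1.67). Galectins, annexins, S100 proteins, thymosins and ferritins had a median of -0.03 and 1 of 42 higher (0.95% of all genes). This was the ferritin copy Ftl1-ps1, with 2308 and 3903 counts and 0.78.

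The IP libraries of the same treatments allow each Input difference to be set beside the ribosome-bound RNA. Of the 79 genes higher in Input 61 had an IP ratio below 0, against 49.7% of all genes, with a median IP ratio of -0.16. In IP the interval lay wholly below 0 for 28 of them and wholly above 0 for 3. The share of all genes with such IP intervals was not computed, so these counts have no background and describe the genes only. Of the 79, 14 were cytosolic ribosomal protein genes, a group with many IP counts that lay mostly below 0 in IP. Of the 27 genes lower in Input 19 had an IP ratio above 0, with a median of 0.14, and none was past 1.5-fold in IP in either direction. Lrrc17 and Arhgef40, lower in Input, had IP ratios of 0.52 (0.37 to 0.67) and 0.36 (0.12 to 0.61). Nop16, higher in Input, had 1124 and 723 counts in IP and a ratio of -0.31 (-0.45 to -0.17). Pip5k1a, Stoml2 and Hmgb3 had IP ratios of 0.10, 0.08 and 0.16, with intervals that included 0.

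**Figure D5:**
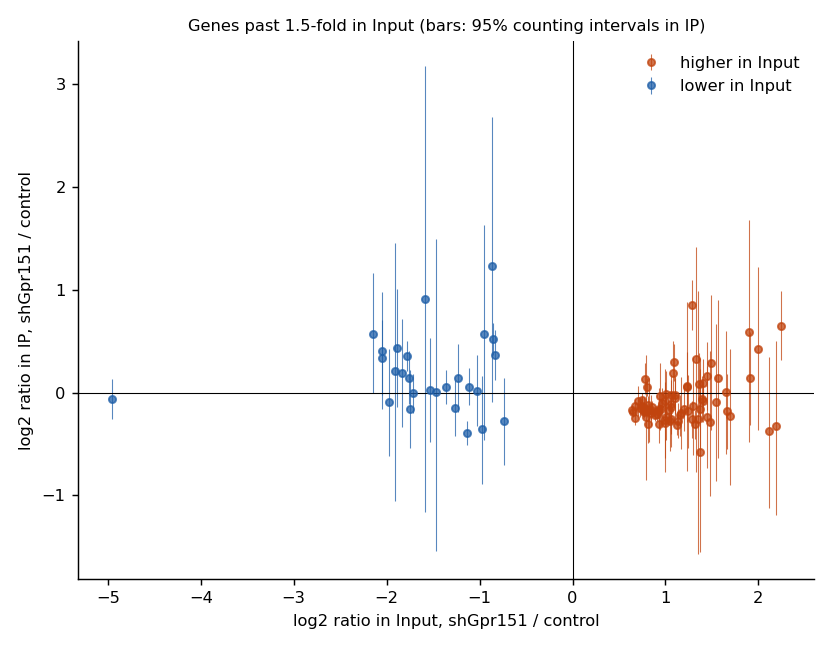
The log2 ratio in Input (horizontal) and in IP (vertical), shGpr151 over control, for the 79 genes higher (orange) and the 27 lower (blue) past 1.5-fold in Input; bars are 95% counting intervals in IP. Most points lie near 0 in IP, with Pabpc1 at -4.96 in Input and -0.06 in IP and Tomm6 at 0.85 in IP.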

How the data were processed

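The authors deposited 1 table of whole-number counts per gene for 12 samples (3 columns in each of 4 groups), made from nanopore cDNA-PCR barcoded libraries per the labels' protocols. Tools named in the submitters' processing notes are minimap2 and Salmon, without versions, and the build is given there as GRCm39 or mm39. The division of reads among paralogs, pseudogenes and overlapping genes and the use of strand were not given in the sources used here. Symbols matched 9061 of 9073 gene IDs. The labels do not say whether samples of a group came from separate animals or cultures. Transcript length was not analysed.

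From the counts, edgeR 4.0.16 (R 4.3.3) gave TMM factors over the 12 columns and kept 8312 genes (filterByExpr, minimum count 10). The columns of a group were summed, since they agreed to counting noise, and exact intervals were computed with scipy 1.17.1. edgeR's common biological coefficient of variation (BCV) over columns was 1.22%. Ratios in Input minus IP have a Wald interval on counting error. Functions were tested on simulated data. Genes named are Gpr151 and Csf1, up to 12 per direction with the largest ratio among genes past 1.5-fold with separate columns and at least 100 counts in a library (predicted models, Riken clones and pseudogenes left out), and from each list the most abundant member and up to 3 per direction. Others (such as Bex1, Bex3, Rack1, Cdh19, Bcat2 and Rpl22) were chosen after their values were seen. The members, 50 gene lists and comparisons were chosen with earlier results of these data known, and 2 lists (Timm and Tomm proteins, and small nuclear ribonucleoproteins) after values were seen; the second had 2 of 22 genes higher past 1.5-fold and a median of 0.24.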

Additional observations from a re-analysis of the deposited data

Results flagged for a closer look

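For 18 of the 23 genes named by size of the Input ratio, the log2 ratio in Input minus that in IP lay wholly past 1.5-fold with its interval on counting error. The difference between Input and IP rests on 1 library of each kind per treatment. Among genes lower in Input this difference was -4.90 for Pabpc1, -2.50 for Ano8, -1.38 for Lrrc17, -1.37 for Pex19, -1.20 for Arhgef40 and -1.17 for Rangap1. Ano8 rests on 4 and 6 counts in IP and its interval ran from -4.40 to -0.60. Among genes higher in Input the difference was 2.49 for Cbwd1, 1.85 for Tprkb, 1.63 for Rangrf, 1.63 for Nop16, 1.57 for Ube2t, 1.53 for Dguok, 1.48 for Cep85, 1.46 for Aimp2, 1.42 for Mrps24, 1.31 for Pip5k1a, 1.29 for Hmgb3 and 1.28 for Stoml2. Since the genes were picked for a large Input ratio, these differences describe them and are no independent support.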

How the results depend on the processing

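The numbers of genes past 1.5-fold, 79 higher and 27 lower, became 281 and 214 past a bound of 0.32 on the log2 scale and 10 and 5 past 2-fold. They ran from 86 to 93 higher and 24 to 25 lower with total counts, RLE or Input-only TMM sizes, and without 1 column at a time from 68 to 78 higher and 19 to 29 lower. Those 3 scalings moved every log2 ratio by 0.022, 0.026 and 0.049. Leaving out the 100 genes whose Input CPM exceeded IP CPM by over 16-fold, an alternative chosen after seeing the data, gave 67 and 32. edgeR calls fell from 691 and 720 to 65 and 20 on summed libraries with an assumed BCV of 10%, and to 1 and 1 (Cbwd1 and Pabpc1) with 20%. DESeq2 1.42.0 called 579 and 498 and limma-voom (limma 3.58.1) 661 and 695. Without 1 column at a time, 29 of the 79 higher and 18 of the 27 lower genes fell short of 1.5-fold at least once, and none of those named reversed. Of 48 list medians 7 changed sign without 1 column: E2 enzymes and deubiquitinases ran from -0.18 to 0.014, Rab GTPases from -0.11 to 0.043, Schwann cell markers from -0.11 to 0.045, cell cycle genes from -0.0057 to 0.066, signals to immune cells from -0.14 to 0.051, non-peptidergic neuron genes from -0.069 to 0.15 and poly(A)-binding and decay factors from -0.12 to 0.016. A further 25 kept their sign but moved by over 1.5 times. Among these, ribosome biogenesis ran from 0.016 to 0.17, translation factors from 0.019 to 0.15, integrated stress response genes from -0.35 to -0.12, interferon genes from 0.049 to 0.22, endothelial markers from 0.018 to 0.32, peptidergic genes from 0.029 to 0.18, V-ATPase subunits from -0.19 to -0.056 and collagens, laminins, integrins and matrix proteases from -0.258 to -0.0819. Large-subunit ribosomal genes past 1.5-fold, 8, were 7 to 12 over the scalings and columns left out. Without 1 column, 1 member came past 1.5-fold in the chromatin, G protein, interferon, poly(A)-binding, regeneration and solute carrier lists, which had none or, for poly(A)-binding, none higher. The replicate block gave 685 and 720 edgeR calls. Same-numbered columns of the 2 Input groups did not deviate together (correlations -0.0010 to 0.0059), so the numbers do not pair them. The depth of 30 to 32 counts for the median gene limits what could be past 1.5-fold: among genes with up to 50 counts over both libraries the median interval was 2.36 wide on the log2 scale.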

Other observations

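A set of 100 genes, picked after seeing the data, had Input CPM exceeding IP CPM by over 16-fold under both treatments and took 17.4% of the counts of Input control and 13.7% of those of Input shGpr151. It held genes known for other tissues: Ccdc62, a testis gene, had 143022 and 109813 counts, Nanog, a factor of pluripotent cells, 28564 and 20350, the odorant receptor gene Olfr1423 19125 and 12695, and Dct, a pigment cell enzyme, 5627 and 4426, beside 6321 and 6221 for Gapdh. Whether these counts come from transcripts of the genes they are assigned to was not tested. Their log2 ratios lay in a narrow band: among 82 of them with at least 1000 control counts and not encoded by the mitochondrion, 79 were below 0 and the middle 50% ran from -0.46 to -0.27, with a median of -0.36. The other 627 genes with as many counts had a median of -0.02 and a middle 50% from -0.27 to 0.24. Ppm1k was the 1 member past 1.5-fold. Among the 100 were also Zfp410 (68575 and 51681 counts, -0.39), Zfp131 (-0.56), Gstt2 (-0.46), Samhd1 (-0.53) and Wdr12 (-0.41), which are members of gene lists used above.

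Kept genes whose columns within an Input group spread over 10 times counting noise numbered 24, and 4 of these were past 1.5-fold: Cep85, Tomm6, Gm21981 and Gm10778. Rpl21, among the 24, had 5575, 5875 and 6134 counts in the control columns.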
